A study of Mus musculus with 47 samples.

Results

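The genes described here are interferon-gamma-inducible GTPase genes of the mouse: the guanylate-binding proteins (GBPs) Gbp2, Gbp3, Gbp5 and Gbp7 and the immunity-related GTPases (IRGs) Igtp, Irgm1 and Irgm2. They were chosen by name, and all 7 were found among the 56748 genes of the count table. Bulk RNA-seq was measured in B78-D14 cells, an amelanotic mouse melanoma line derived from B16 that lacks Cdkn2a, and in fragments of tumors grown from these cells under the skin of male, immunocompetent C57BL/6 mice. The mutant cells carry a G-to-A change made with a mitochondrial base editor, m.11944 or m.12436 by its position in the mitochondrial DNA, that places a premature stop in Mt-Nd5, a core subunit of respiratory complex I. The percentage in a group's name is its heteroplasmy, the share of mitochondrial DNA copies with the mutation. The groups were wild-type control cells (n = 4 cultures), m.11944 60% cells (n = 4), wild-type control tumors numbered 001 to 004 (n = 4), m.12436 40% tumors (n = 7) and m.12436 60% tumors (n = 7). No group was treated. Each mutant group came from 1 edited and sorted cell population, so its replicates do not show how independently edited lines would vary. The cultures and the mutant tumors carry different mutations, and the other 21 samples of the series were not analysed here. The comparisons ask whether the GTPase genes differed with the mutation in culture, and with the mutation and its heteroplasmy in tumors.

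GBPs and IRGs are made by many cell types after exposure to interferon-gamma, a cytokine released mainly by T cells and NK cells. The receptor signals through the kinases Jak1 and Jak2, and many target promoters hold gamma-activated sites (GAS). Among the targets is the transcription factor Irf1, which acts through the interferon-stimulated response element (ISRE). The GTPases gather on the membranes around intracellular bacteria and parasites. In tumors, their transcripts can serve as a readout of interferon exposure in cancer cells and host cells alike.

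The promoter stretches that hold these elements are shown because they are what the genes share besides their protein family. They are taken from RefSeq windows (GRCm38.p6) that begin 250 bases before an annotated start and end shortly after it. Each is written 5′ to 3′ on the strand of the gene. Capitals mark every match to the ISRE core, searched on both strands as GAAA, any 2 bases and GAAA (TTTC, any 2 bases and TTTC on the other strand), or to the GAS core, searched as TTCNNNGAA, which reads the same on both strands.
Gbp2: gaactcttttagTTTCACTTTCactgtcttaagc
Gbp3: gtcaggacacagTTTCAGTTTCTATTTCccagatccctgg
Gbp5: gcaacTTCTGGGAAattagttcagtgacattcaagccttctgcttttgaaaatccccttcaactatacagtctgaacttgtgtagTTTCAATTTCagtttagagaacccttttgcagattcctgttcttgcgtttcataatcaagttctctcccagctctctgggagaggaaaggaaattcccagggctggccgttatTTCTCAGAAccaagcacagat
Gbp7: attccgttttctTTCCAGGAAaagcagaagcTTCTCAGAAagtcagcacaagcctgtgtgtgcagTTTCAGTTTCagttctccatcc
Igtp: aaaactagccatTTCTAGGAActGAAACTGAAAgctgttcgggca
Irgm1: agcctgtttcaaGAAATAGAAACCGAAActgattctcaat
Irgm2: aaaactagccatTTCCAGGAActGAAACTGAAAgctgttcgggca

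All 7 genes had an ISRE core before the annotated start, while 3.44% of the 32851 promoter windows in the RefSeq table held one. Gbp5, Gbp7, Igtp and Irgm2, 4 of the 7, also held a GAS core, which 8.3% of all windows held, and 0.454% of all windows held both. The ISRE core began 59 bases before the start in Gbp2, 165 in Gbp5, 53 in Gbp7, 34 in Igtp and 64 in Irgm2. Gbp3 had 2 overlapping ISRE cores, 45 and 39 bases before the start, and Irgm1 had 2 overlapping cores at 30 and 24 bases. Igtp and Irgm2 were identical at 44 of the 45 bases shown and differed by T16C, with positions counted from 1 at the 5′ end of the Igtp stretch. A second annotated window of Gbp3 held neither core. Among family members outside the 7, the 1 other GBP gene with a window held an ISRE core, and of 8 other IRG genes with a window 4 held an ISRE core and 3 a GAS core. This search left out family genes on a further chromosome, so it does not cover all other IRGs. A match is a description of the letters, and no factor binding was measured.

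In GRCm39, the genome build of the counts, each stretch matched its chromosome exactly once. The GBP stretches lie on the plus strand at chr3:142326353-142326386 for Gbp2, chr3:142265748-142265787 for Gbp3, chr3:142202445-142202663 for Gbp5 and chr3:142235979-142236065 for Gbp7. The IRG stretches lie at chr11:58090325-58090369 for Igtp and chr11:58105716-58105760 for Irgm2 on the plus strand, and at chr11:48762250-48762289 on the minus strand for Irgm1. The stretch of Gbp7 spans the annotated start of the gene, and the other 6 lie inside the annotated gene spans, so the RefSeq starts used here are not the outermost annotated ones. The GBP genes form a cluster on chromosome 3, with Gbp5 (ENSMUSG00000105504) at chr3:142199739-142228105, Gbp7 (ENSMUSG00000040253) at chr3:142236044-142255910, Gbp3 (ENSMUSG00000028268) at chr3:142265731-142278979 and Gbp2 (ENSMUSG00000028270) at chr3:142326349-142343779. On chromosome 11, Igtp (ENSMUSG00000078853, chr11:58089840-58098417) and Irgm2 (ENSMUSG00000069874, chr11:58090444-58113615) overlap each other, and Irgm1 (ENSMUSG00000046879, chr11:48752795-48763164) lies apart from them. Igtp and Irgm2 share 162 exonic bases on the same strand, 3.55% of the exonic bases of Igtp and 4.33% of those of Irgm2, and 10.6% of the exonic bases of Gbp7 are shared with Gm43802. Antisense genes overlap 7.82% of the exonic bases of Gbp5, 7.82% of Irgm1, 7.72% of Irgm2 and 5.13% of Gbp7. Whether reads were counted by strand is not given in the sources used here, so reads of such partners cannot be told apart.

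Between 16475735 and 36173502 reads were counted on genes per sample, and levels are given as CPM, which is a count divided by the library total after TMM scaling and expressed on a common scale. Leukocyte markers (Ptprc, Cd53, Coro1a and Laptm5) summed to 0.102 to 0.499 CPM in the cultures and 369 to 760 CPM in the tumors. In the cultures, which are labelled melanoma cells, the melanocyte gene Tyr was at 0 in every sample, while Mitf had a mean of 14.99 CPM and B4galnt1, an enzyme of ganglioside synthesis, 10.2 CPM in control cells. Of the 8 melanoma markers, 3 passed the filter on low counts in the cultures: Mitf, B4galnt1 and St8sia1. Control tumor 003 stands apart: it had the lowest level of all 7 GTPases among the 18 tumors, and the highest levels of the melanocyte genes Dct (26.3 CPM) and Sox10 (9.58 CPM). Dct was at 0 in all 14 mutant tumors. Dct and Sox10 are named here after their values were seen.

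In culture, Irgm1 was the 1 GTPase gene with more than a trace of RNA. Irgm1, a regulatory IRG that keeps effector IRGs off the cell's own membranes and has been linked to autophagy, was at 8.01, 7.64, 8.13 and 13.9 CPM in control cells. It was at 10.4, 9.41, 12.2 and 11.1 CPM in m.11944 60% cells. The groups overlap, because control culture 4 lay above every mutant culture. Igtp, also known as Irgm3, had counts of 13, 13, 9 and 13 in control cells and 22, 16, 17 and 8 in m.11944 60% cells. Irgm2 had 19, 18, 8 and 22 counts in control cells and 22, 26, 13 and 23 in m.11944 60% cells. The GBPs were lower still: Gbp2 had 5 to 22 counts per culture over both groups, Gbp7 2 to 11, and Gbp3 0 to 7. Gbp5, which has been linked to inflammasome activation, had 0 counts in all 8 cultures.

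The m.11944 mutation went with no called difference in these genes in culture. Of the 7 genes, 4 passed the filter on low counts and 0 were called by edgeR at an adjusted p under 0.1. Over all 12930 genes tested, 5 were called (0.0387%), 532 had an unadjusted p under 0.05, and DESeq2 called 84. The log2 fold change of m.11944 60% over control cells was 0.20 for Irgm1 (SE 0.221, 95% interval -0.31 to 0.70), 0.49 for Igtp (SE 0.428, -0.49 to 1.47), 0.36 for Irgm2 (SE 0.4, -0.56 to 1.27) and -0.20 for Gbp2 (SE 0.484, -1.31 to 0.91), each with an edgeR adjusted p of 1. Exact two-sided permutation tests gave p between 0.314 and 0.857 for these 4 genes, where 4 against 4 cultures can reach 0.0286. Same-numbered cultures of both groups varied together, and with the culture number as a block 919 genes but 0 of the 4 GTPases were called. The ligand gene Ifng had 0 counts in all 8 cultures. Irf1 had a log2 fold change of 0.49, with an edgeR adjusted p of 1. The intervals and permutation tests do not use the culture number, and differences within the intervals remain possible. Gbp3, Gbp5 and Gbp7 had too few counts for the edgeR test.

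In control tumors all 7 GTPases were higher than in control cells, and the groups did not overlap for any of them. Summed over libraries and set against the library totals, Irgm1 was 4.57-fold higher, Irgm2 53.5-fold, Igtp 63.1-fold, Gbp2 116.5-fold, Gbp7 182.4-fold and Gbp3 224-fold. Gbp5 went from 0 counts in the control cultures to 918 counts in the control tumors, at least 358.8-fold higher against a floor of 3 counts over the group. By edgeR all 7 were called higher, with adjusted p between 2.71e-06 and 0.000443, in a comparison where 35.3% of the 15047 genes tested were called higher and 41.6% were higher without overlap. All but Irgm1 passed the filter through the tumors, so this is a description of where the RNA was found. Culture against mouse, host cells and handling differ together here and cannot be told apart. In bulk tumor RNA, more cells that express a gene and more RNA per cell cannot be told apart either, and this holds for every tumor comparison that follows.

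**Figure D1:**
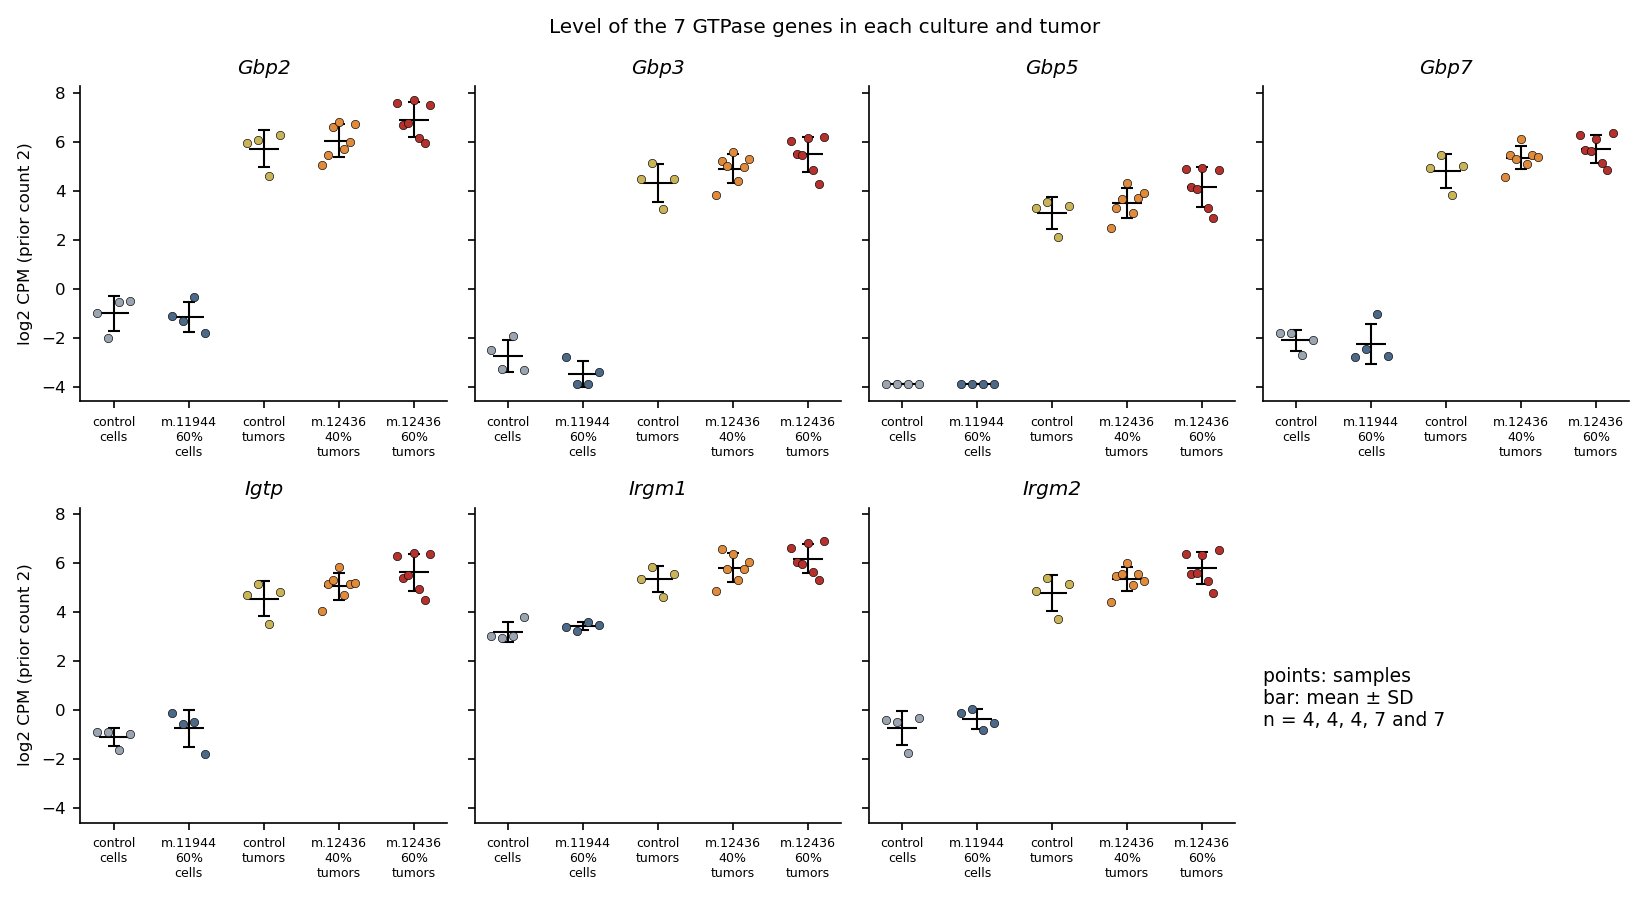
Levels of the 7 GTPase genes as log2 CPM (prior count of 2), with 1 point per culture or tumor and the mean ± SD of each of the 5 groups. The cultures lie far below the tumors for every gene except Irgm1, where the gap is 4.57-fold between control groups, and control tumor 003 is the lowest tumor in each panel.

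Per kb of all annotated exons, Gbp2 led in tumors and Gbp5 came last. In control tumors, levels in CPM per kb of exon were 22.4 for Gbp2, 7.99 for Irgm2, 6.69 for Irgm1, 5.53 for Igtp, 5.20 for Gbp3, 5.04 for Gbp7 and 1.24 for Gbp5. The order was the same in m.12436 60% tumors, from 51.3 for Gbp2 through 16.03 for Irgm2 and 12.3 for Irgm1 to 2.73 for Gbp5. This order is not firm beyond Gbp5 coming last. Between neighbors from Irgm2 to Gbp7 the gaps were smaller than the SD between tumors, and with the length of the canonical transcript in place of all exons Irgm1 moved to 20.4 CPM per kb in control tumors, next to 22.6 for Gbp2, and in m.12436 40% tumors it was above Gbp2, at 29.0 against 28.4. As a share of the 7 genes' summed level per kb, Gbp2 made up 41.2% ± 4.09 (SD, n = 4) of control tumors and 44.2% ± 2.01 (n = 7) of m.12436 60% tumors. Irgm1 made up 75.0% ± 3.41 (n = 4) of control cells and 76.5% ± 5.43 (n = 4) of m.11944 60% cells, and 12.9% ± 1.98, 13.2% ± 3.87 and 10.9% ± 0.828 of control, m.12436 40% and m.12436 60% tumors. One tumor stood apart in make-up: m.12436 40% tumor 2 had 21.8% Irgm1 and 24.7% Gbp2.

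**Figure D2:**
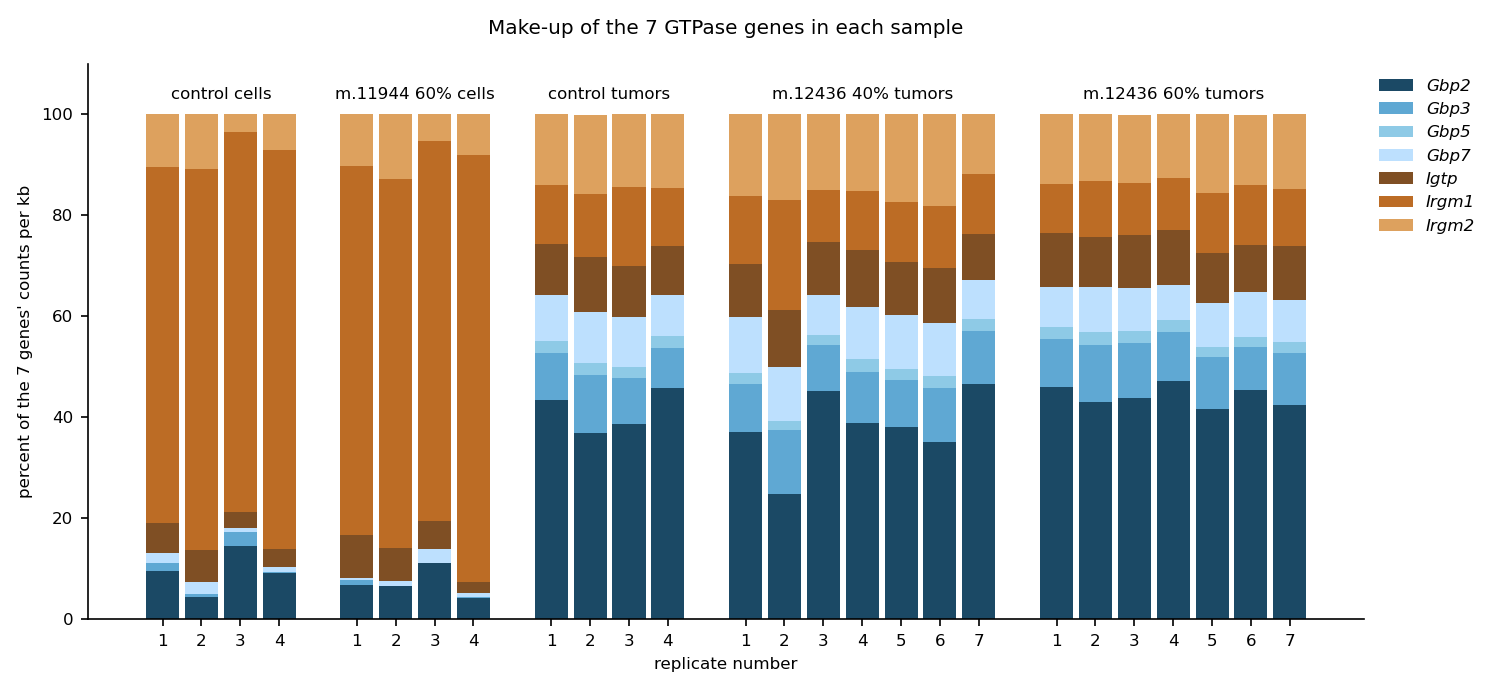
Share of each GTPase gene in the summed level per kb of the 7 genes, in percent, with 1 bar per sample. Irgm1 fills about 75.0% of the bars of control cells, whereas Gbp2 takes the largest share of every tumor bar.

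In m.12436 60% tumors the fitted level of the GBPs was 1.85-fold (Gbp7) to 2.29-fold (Gbp2) that of control tumors, without passing the threshold over all genes. Gbp2, a GBP that is anchored to membranes by a lipid group, was at 61.8, 67.2, 24.2 and 76.3 CPM in control tumors. The 7 m.12436 60% tumors ran from 61.4 through a median of 108 to 206 CPM, with means of 131 ± 59.7 against 57.4 ± 22.9 in control tumors. The groups overlap, with 5 of 7 mutant tumors above every control tumor and control tumor 003 below every mutant tumor. Gbp3 was at 22.1, 34.8, 9.42 and 22.03 CPM in control tumors and 19.4, 44.8 and 72.4 CPM (lowest, median, highest) in m.12436 60% tumors. Gbp5 was at 9.79, 11.6, 4.21 and 10.5 CPM in control tumors and 7.26, 17.6 and 30.5 CPM in m.12436 60% tumors. For both, again 5 of 7 m.12436 60% tumors exceeded all 4 controls. Gbp7, which takes part in host defense in macrophages, was at 30.6, 43.4, 14.3 and 32.3 CPM in control tumors and 28.3, 49.9 and 82.4 CPM in m.12436 60% tumors. Its groups overlap in the same way.

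The regulatory IRGs showed the same arrangement. Igtp was at 25.8, 35.0, 11.4 and 28.6 CPM in control tumors and 22.6, 46.3 and 84.7 CPM (lowest, median, highest) in m.12436 60% tumors. Irgm1 was at 41.1, 57.0, 24.5 and 47.7 CPM in control tumors and 39.7, 65.7 and 119.3 CPM in m.12436 60% tumors. Irgm2, which like Irgm1 guards the cell's own membranes, was at 29.4, 41.6, 13.1 and 35.5 CPM in control tumors and 27.8, 48.6 and 93.4 CPM in m.12436 60% tumors. For each of the 3 genes, 5 of 7 mutant tumors were above every control tumor.

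None of the 7 passed the test. The log2 fold changes of m.12436 60% over control tumors were 1.20 for Gbp2 (SE 0.425), 1.16 for Gbp3 (SE 0.406), 1.15 for Gbp5 (SE 0.417), 1.14 for Igtp (SE 0.402), 1.01 for Irgm2 (SE 0.367), 0.89 for Gbp7 (SE 0.339) and 0.88 for Irgm1 (SE 0.353). The edgeR adjusted p ran from 0.172 for Gbp3 to 0.231 for Irgm1, so 0 of 7 were called, where 0.962% of the 16213 genes tested were called higher. All 7 had an unadjusted p under 0.05 in this direction, from 0.0112 to 0.0237, against 8.0% of all genes, and 8.46% of all genes had at least 5 m.12436 60% tumors above every control tumor. The members' tests are not independent of each other, as their levels move together. Exact two-sided permutation tests gave p = 0.0333 for Gbp2 and Gbp3, 0.0424 for Gbp7 and Irgm2, 0.0455 for Igtp, 0.0485 for Irgm1 and 0.0606 for Gbp5, where the design can reach 0.00303. DESeq2 called 6 of the 7, with adjusted p from 0.0736 to 0.0983, and gave 0.124 for Irgm1, where it called 3.86% of the 14641 genes with an adjusted p higher. Without control tumor 003 the log2 fold changes dropped to between 0.66 and 0.95, with edgeR adjusted p from 0.549 to 0.612.

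**Figure D3:**
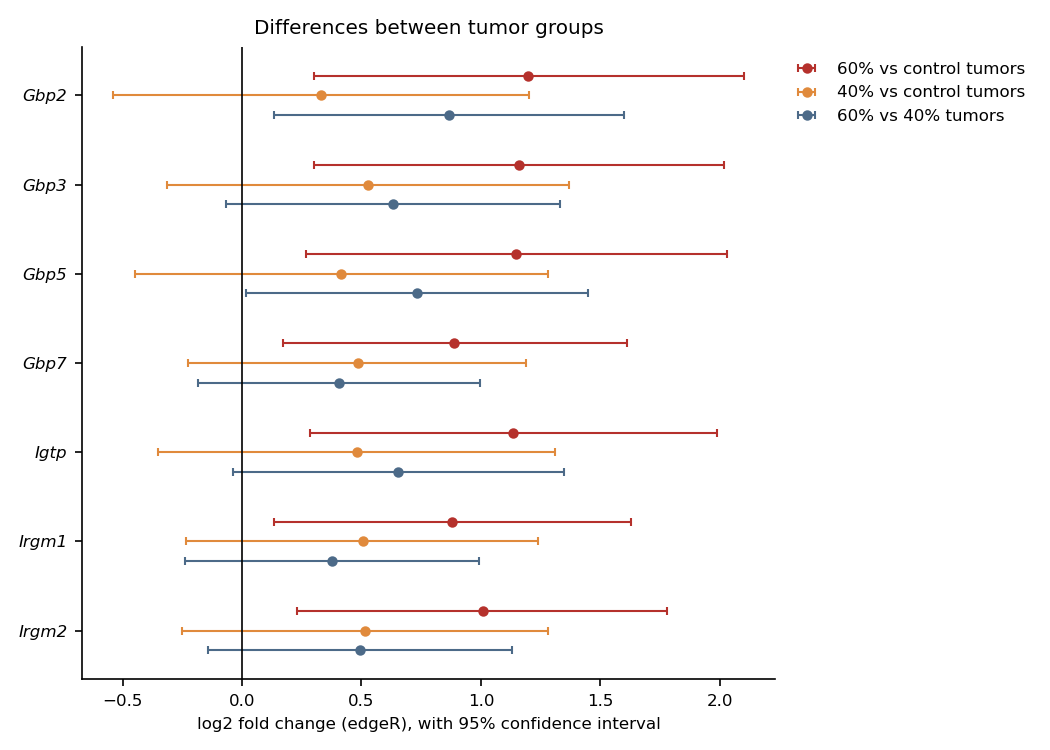
Log2 fold changes of the 7 GTPase genes with 95% intervals from edgeR, for m.12436 60% over control tumors, m.12436 40% over control tumors and m.12436 60% over 40% tumors. The values of m.12436 60% over control tumors, 0.88 to 1.20, have intervals above 0, and the values of m.12436 40% over control tumors, 0.33 to 0.53, have intervals that include 0.

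In m.12436 40% tumors the GTPases had positive log2 fold changes over control tumors, and all 95% intervals included 0. This comparison uses the same control tumors as the one before it. Gbp2 ran from 33.2 through a median of 63.2 to 112 CPM, and its log2 fold change over control tumors was 0.33 (95% interval -0.54 to 1.20). Irgm1 ran from 29.5 through 54.6 to 96.3 CPM, with a log2 fold change of 0.51 (-0.23 to 1.24). The other genes had log2 fold changes of 0.53 for Gbp3, 0.51 for Irgm2, 0.48 for Gbp7 and Igtp, and 0.41 for Gbp5. For each gene, 3 to 5 of the 7 m.12436 40% tumors exceeded all 4 controls. By edgeR 0 of 7 were called (adjusted p 0.937 to 0.96), and 0% of the 16213 genes were called, while 825 had an unadjusted p under 0.05 and DESeq2 called 5 genes, with 0 GTPases among them. Exact permutation p ran from 0.161 to 0.479. Without control tumor 003 the log2 fold changes of the 7 genes dropped to between 0.086 (Gbp2) and 0.32 (Irgm1).

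Between the heteroplasmy levels, Gbp2 differed most. Its log2 fold change of m.12436 60% over 40% tumors was 0.87 (SE 0.347, unadjusted p = 0.0235, edgeR adjusted p = 0.263), with 3 of 7 m.12436 60% tumors above every 40% tumor. Gbp5 had 0.73 (SE 0.34, unadjusted p = 0.0459, edgeR adjusted p = 0.342). Igtp had 0.65, Gbp3 0.63, Irgm2 0.49, Gbp7 0.40 and Irgm1 0.37, with edgeR adjusted p up to 0.598. By the threshold 0 of 7 were called, where 0.814% of the 16213 genes were called higher. An unadjusted p under 0.05 was reached by 2 of the 7, against 6.97% of all genes in this direction. The exact permutation p was 0.039 for Gbp2 and between 0.116 and 0.272 for the others, with a smallest possible value of 0.000583.

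The GTPases moved together from tumor to tumor. Ranked from 1 (highest) to 18 over all tumors, m.12436 60% tumors 7, 4 and 1 held ranks 1 to 4 for every gene, and m.12436 40% tumor 4 held ranks 3 to 5. At the other end, control tumor 003 ranked 18 and m.12436 40% tumor 1 ranked 17 for all 7 genes, and m.12436 60% tumor 6 ranked 14 to 16. The exception was m.12436 40% tumor 2, whose ranks ran from 4 to 16 across the 7 genes. After the group means were removed, Pearson's r over the 18 tumors was 0.985 for Igtp with Irgm2, which share exonic bases, and 0.782 for Gbp2 with Irgm1, the highest and lowest of the 21 pairs, with a median of 0.952. These correlations describe points that share a tumor and its library.

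**Figure D4:**
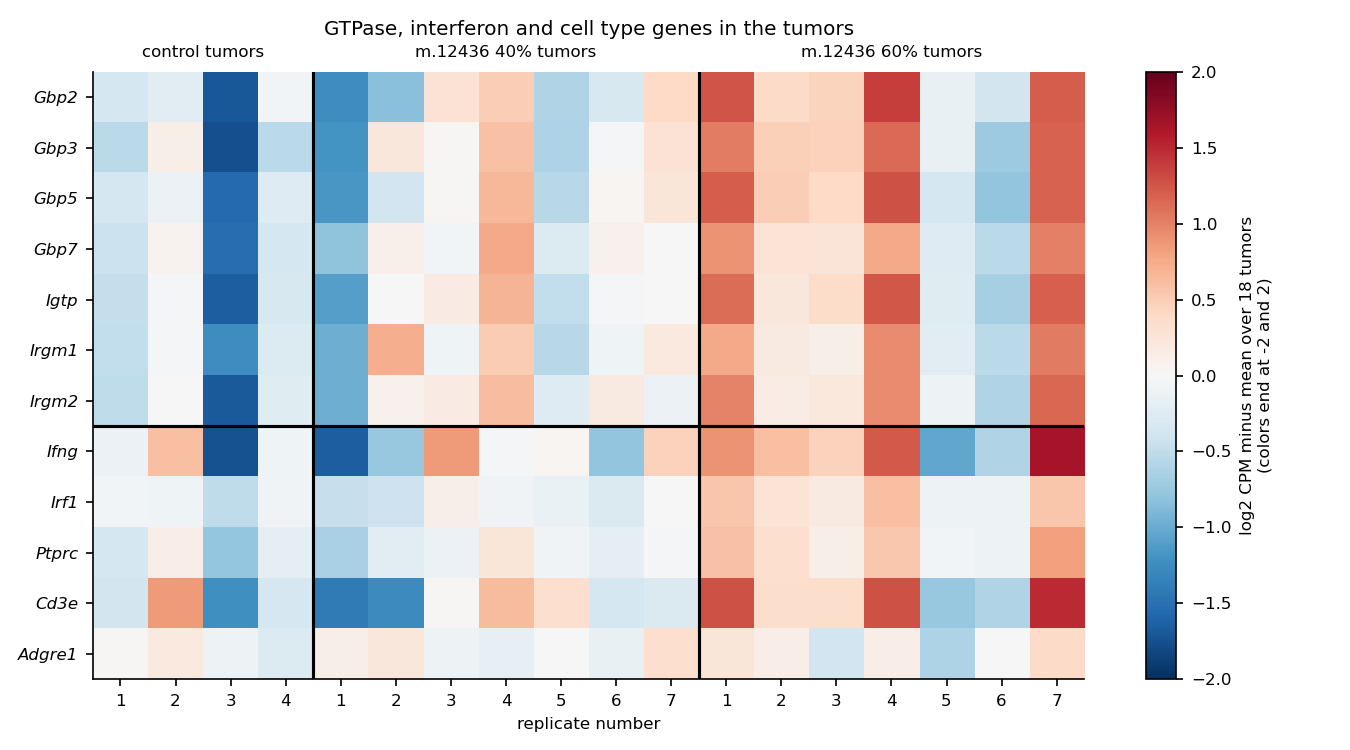
Heat map of the 7 GTPase genes and of Ifng, Irf1, Ptprc, Cd3e and Adgre1 over the 18 tumors by group and replicate number, as log2 CPM minus the mean of each gene over all tumors. Control tumor 003 is lowest for all 7 GTPases, m.12436 60% tumors 1, 4 and 7 are high for all 7, and Adgre1 varies least like them.

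Other IRG genes were among the genes most like the 7 across tumors. By mean Pearson's r with the 7 genes over 18 tumors, group means removed, the first 10 of 16206 genes included Ifi47 (0.956), Tgtp1 (0.953), Gm12250 (0.951), Tgtp2 (0.947), Tap1 (0.941), Dtx3l (0.933), Herc6 (0.933), Parp12 (0.93) and H2-K1 (0.93). The median gene had -0.0285. Ifi47, Tgtp1 and Tgtp2 were on the list of other IRGs used here, and Gm12250 was on no list. Tap1 and H2-K1 serve antigen presentation. Without removing the group means, Parp12 was at place 703 and H2-K1 at place 17, and the others named were again among the first 10.

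Upstream of the GTPases, the ligand was near the limit of counting. Ifng had 6, 15, 1 and 6 counts in control tumors, 2 to 32 counts in m.12436 60% tumors and 1 to 16 in m.12436 40% tumors. Its log2 fold change was 1.01 for m.12436 60% over control tumors (SE 0.618, edgeR adjusted p = 0.43) and 0.09 for m.12436 40% over control tumors (adjusted p = 0.997). Irf1 differed by 0.47 between m.12436 60% and control tumors (edgeR adjusted p = 0.134). Between m.12436 60% and 40% tumors, Irf1 rose by 0.47 (edgeR adjusted p = 0.0888) and Irf8, an interferon-inducible factor of myeloid cells, by 0.46 (adjusted p = 0.0828). Both calls were lost in 9 of 14 fits that left out 1 tumor, with adjusted p up to 0.182. Across the 18 tumors, group means removed, r of the 7 GTPases with Ifng ran from 0.714 for Irgm1 to 0.884 for Gbp2. With Irf1 it ran from 0.684 for Irgm1 to 0.935 for Gbp2. Within the 7 m.12436 60% tumors these ran from 0.885 to 0.933 with Ifng and from 0.955 to 0.987 with Irf1. Within the 7 m.12436 40% tumors they ran more widely, from 0.343 (Irgm1) to 0.826 (Gbp2) with Ifng and from 0.189 (Irgm1) to 0.874 (Gbp2) with Irf1.

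Other family genes on the lists mostly had positive log2 fold changes too, over a wider range than the 7 genes. For m.12436 60% over control tumors, 0 of 5 other GBPs tested were called and all 5 had positive log2 fold changes (median 1.25), beside a median of 1.14 for the 7 genes. Gbp9 had the smallest p (log2 fold change 1.01, edgeR adjusted p = 0.158). Of 11 other IRGs 0 were called and 11 were positive (median 1.20), from 0.10 for Irgq, named here after its value was seen (SE 0.085, adjusted p = 0.606), to 1.76, with 9930111J21Rik1 at 0.76 (adjusted p = 0.143), and of 5 further interferon-inducible GTPases 0 were called and 5 were positive (median 0.97), with Gvin1 at 1.25 (adjusted p = 0.143). Of 14 other interferon-gamma targets 0 were called and 13 were positive (median 0.74), led by the chemokine Cxcl11 at 2.05 (adjusted p = 0.119). Of 14 genes of the interferon-gamma ligand, receptor and signal 0 were called (13 positive, median 0.34), with Irf8 at 0.47 (adjusted p = 0.13), and of 7 genes of the type I interferon pathway 0 were called (7 positive, median 0.11), with Stat2 at 0.78 (adjusted p = 0.133). Between m.12436 60% and 40% tumors, 0 of 5 other GBPs were called, with Gbp4 at 1.04 (adjusted p = 0.263), and Cd274 of the other targets was at 0.79 (adjusted p = 0.114).

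Of the lists for processes that these GTPases act in, inflammasome and pyroptosis genes held the calls. The list as a set was not tested. In m.12436 60% over control tumors, 3 of 14 were called higher, beside 0.962% of the 16213 genes tested. Zbp1, a sensor of nucleic acids, rose by 1.42 on the log2 scale (SE 0.315, edgeR adjusted p = 0.0414). The inflammatory caspases Casp1 and Casp4 rose by 0.67 (adjusted p = 0.0704) and 0.69 (adjusted p = 0.082). Zbp1 was at 20.04, 26.2, 8.20 and 20.4 CPM in control tumors and 28.3, 56.6 and 66.5 CPM (lowest, median, highest) in m.12436 60% tumors. The call of Zbp1 was lost without control tumor 001 (adjusted p = 0.118) or 003 (adjusted p = 0.176), that of Casp1 in 6 of 11 such fits and that of Casp4 in 7 of 11. Against m.12436 40% tumors, 3 of 14 were called higher, beside 0.814% of the 16213 genes tested. Zbp1 rose by 1.01 (adjusted p = 0.08), Casp4 by 0.60 (adjusted p = 0.0815) and Nlrp3 by 0.43 (adjusted p = 0.0831), and these calls were lost in 9 or 10 of 14 such fits. Of 15 autophagy conjugation genes 0 were called for m.12436 60% over control tumors (8 positive, median 0.0024), with Ube2n at -0.12 (adjusted p = 0.255). Of 6 prenylation genes, for attaching the lipid group of some GBPs or for the processing that follows, 0 were called (1 positive, median -0.06), with Fnta at -0.19 (adjusted p = 0.234).

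For m.12436 60% over control tumors, markers of T cells and NK cells had positive log2 fold changes like the GTPases, while for m.12436 40% over control tumors the T cell markers mostly had negative ones. The summed level of 7 T cell markers was 7.999 to 34.6 CPM in control tumors, 8.92 to 58.8 in m.12436 60% tumors and 8.84 to 23.7 in m.12436 40% tumors. That of 6 NK cell markers was 10.1 to 20.9, 9.43 to 39.4 and 10.4 to 25.9 CPM. For m.12436 60% over control tumors, 7 of 7 T cell markers (median log2 fold change 0.77), 6 of 6 NK cell markers (0.66) and 4 of 4 leukocyte markers (0.43) were positive and 0 were called. For m.12436 40% over control tumors, 2 of 7 T cell markers (median -0.12), 6 of 6 NK cell markers (0.23) and 4 of 4 leukocyte markers (0.08) were positive and 0 were called, beside 7 of 7 GTPases (0.48). Between m.12436 60% and 40% tumors, 7 of 7 T cell markers (median 0.88) and 6 of 6 NK cell markers (0.43) were positive. So were 4 of 4 leukocyte markers (0.35), beside 7 of 7 GTPases (0.63), and 0 were called. Macrophage markers summed to 960 to 1195 CPM in control tumors and 814 to 1438 in m.12436 60% tumors, with 4 of 7 positive (median 0.05). Skeletal muscle markers summed to 2.29 to 142 CPM in control, 39.0 to 194 in m.12436 40% and 2.28 to 225 in m.12436 60% tumors. Of 5 such markers 0 were called. For m.12436 40% over control tumors 5 were positive (median 0.74), for m.12436 60% over control tumors 1 (-0.01), and for m.12436 60% over 40% tumors 0 (-0.71). No marker of these lists was at 0 in all tumors of a group. Across the 18 tumors, r of the GTPases ran from 0.845 to 0.943 with Ptprc, from 0.662 to 0.855 with Cd3e and from 0.288 to 0.436 with the macrophage gene Adgre1. Within the 7 m.12436 60% tumors it ran from 0.955 to 0.979 with Cd3e and from 0.588 to 0.674 with Adgre1, and within the 7 m.12436 40% tumors from 0.176 (Irgm1) to 0.752 (Gbp2) with Cd3e and from -0.452 (Irgm2) to 0.105 (Irgm1) with Adgre1. Calls among the cell type markers fell on the melanoma list, where 2 of 4 genes tested passed for m.12436 60% over control tumors, 1 higher and 1 lower. Over all 16213 genes tested, 156 were called higher and 218 lower. These 2 genes are named here after their values were seen. B4galnt1 rose by 0.32 on the log2 scale (edgeR adjusted p = 0.0683) and also rose over m.12436 40% tumors, by 0.35 (adjusted p = 0.0182). The former call was lost in 6 of 11 fits without 1 tumor (control 001 or 003, m.12436 60% tumor 1, 3, 4 or 7), with adjusted p from 0.104 to 0.286. Pmel, a melanosome gene, fell by 2.21 (edgeR adjusted p = 0.0456), from 0.584, 1.47, 8.79 and 0.700 CPM in control tumors to 0.498 to 0.787 CPM in m.12436 60% tumors. Without control tumor 003 its log2 fold change was -0.56 (adjusted p = 0.559). The part of cell make-up in the GTPase levels was not tested.

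Genes next to the 7 were compared because the GBPs and IRGs lie in clusters. Within 500 kb of a GBP and in no list, 0 of 5 genes tested were called for m.12436 60% over control tumors, and within 500 kb of an IRG 2 of 23 were. Over all 16213 genes tested, 0.962% were called higher. Trim7 rose by 0.63 on the log2 scale (edgeR adjusted p = 0.0663) and Psme2b by 0.49 (adjusted p = 0.0613). No such neighbor was called for m.12436 40% over control tumors or between the heteroplasmy levels.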

How the data were processed

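RNA was extracted and sequenced by GeneWiz from cell pellets and tumor fragments. The authors deposited 1 table of raw counts per gene, made by aligning reads to GRCm39 with STAR and counting with featureCounts. Columns were matched to samples by name, the mutant ones through wording in the study's source data; 21 of 47 columns could not be matched and were not used. Symbols and positions came from a GENCODE annotation of GRCm39, which held 56017 of the 56748 gene IDs. Counts were tested with edgeR 4.0.16 in R 4.3.3 (filterByExpr, TMM, robust quasi-likelihood test, Benjamini-Hochberg adjustment over all genes tested, called under 0.1). Cultures were fitted alone, and the 3 tumor groups together. The test was also run on simulated counts, which held no pairing of cultures and no variation shared between genes, so it does not cover these features of the data. Single genes were also compared by exact permutation of log2 CPM with a prior count of 2. Alternatives were limma-voom (limma 3.58.1), DESeq2 1.42.0, its size factors, other count filters, adjusted p under 0.05, a replicate block, 2-group fits and leaving out each sample.

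Named were the 7 genes, up to 3 called genes per list or else the 1 of smallest p, Ifng and Irf1, the 10 genes most like the 7, and called neighbors within 500 kb; 1 gene that this rule names is not reported here. The members and lists were chosen with earlier results of these data known. Same-numbered cultures deviated together (r 0.779 to 0.878 over 4 pairs), a hint from the data that numbers pair the cultures. Same-numbered tumors did not. The study's reporting summary states in general that experiments had biological and technical replicates, and does not say which of these the RNA-seq cultures are, so p-values measure the spread between these samples, which may be technical in part. Totals of 16475735 to 36173502 counts limit the precision of low genes, and floors cover counting error only.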

Additional observations from a re-analysis of the deposited data

Results flagged for a closer look

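Of 66 sets of values (a gene's level or share in 1 group), 7 held a sample whose gap to its nearest neighbor was large for the range of its group by Dixon's criterion, where chance gives about 1 in 20. In control cells, Irgm1 was high in replicate 4 (13.9 CPM, nearest 8.13) and Igtp was low in replicate 3 (0.256 CPM, nearest 0.441). In m.11944 60% cells, replicate 3 was high for Gbp7 (0.422 CPM, nearest 0.113), which is also 2.75% of the 7 genes' summed level per kb (nearest 0.931%). The Gbp7 and Igtp values rest on 11 and 9 counts. In m.12436 40% tumors, tumor 2 had high shares of Irgm1 (21.8%, nearest 13.3%) and Gbp3 (12.7%, nearest 10.6%), and tumor 7 had a low share of Igtp (9.03%, nearest 10.5%). The causes were not tested.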

How the results depend on the processing

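For m.12436 60% over control tumors, DESeq2 called 6 of the 7 GTPases and each other alternative run called 0. With at least 10 counts in every sample, 1 of the 7 was tested between control tumors and control cells, and it was called. Leaving out each sample in turn gave 0 GTPases called in both mutant tumor comparisons, between heteroplasmy levels and in cultures, and 7 between control tumors and cells. In cultures the log2 fold change of Gbp2 ran from -0.60 to 0.031, and turned positive without m.11944 60% replicate 4. For m.12436 40% over control tumors those of Ifng ran from -0.30 to 0.66 and of Irf1 from -0.087 to 0.053; the alternatives for genes outside the 7 were chosen after seeing the data. With the replicate block 0 of 4 GTPases were called in cultures, where it moved the genes called from 5 to 919, and 0 of 7 in the tumor comparisons, where samples share only a number. The block ended the calls of Zbp1 (adjusted p = 0.13), Casp1 (0.156), Casp4 (0.114), Pmel (0.234) and B4galnt1 (0.155) against control tumors. Between heteroplasmy levels it ended those of Irf1 (0.131), Zbp1 (0.165), Casp4 (0.102) and Nlrp3 (0.127), and kept those of Irf8 (0.0554) and B4galnt1 (0.0364). Genes called for m.12436 60% over control tumors were 374, and became 1056 with DESeq2, 178 with the block, 943 with only the 2 groups fitted, 150 at adjusted p under 0.05, 66 without control tumor 003 and 724 without 004. Between heteroplasmy levels 293 became 744 with DESeq2, 178 without the filter, 113 at adjusted p under 0.05 and 108 to 452 with 1 tumor left out. In cultures 5 became 84 with DESeq2 and 0 with at least 10 counts in every sample or with 1 culture left out. The causes were not tested. Depth limits Gbp3, Gbp5 and Gbp7 in cultures and Ifng in tumors.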
